A study of Rattus norvegicus with 8 samples.

Results

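Platelets, the small anucleate blood cells that stop bleeding, carry CD31 on their surface, as do endothelial cells and some leukocytes. The genes described here are 10 platelet genes, named by a list of symbols and not by measured values: Pf4, Ppbp, Gp1ba, Gp1bb, Gp5, Gp9, Itga2b, Itgb3, Treml1 and Clec1b. Probes were matched to them by RefSeq accession. Of the 10 genes 9 had a probe, Itga2b matched none, and 8 passed the filter on dim probes, out of 26890 genes or accessions on the array, 19137 of which passed. The filter kept probes that the scanner software flagged as well above background on at least 4 of 8 arrays. Gp1ba did not pass it, so the 8 measured genes are not all of the 10.

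The 8 samples came from Sprague-Dawley rats, 8 to 10 weeks old, whose lungs were taken 5 days after subcutaneous treatment. The saline group held 4 rats, and the monocrotaline group held 4 rats given 60 mg/kg of this plant alkaloid, which injures lung vessels and is used to bring on pulmonary hypertension in rats. Lungs were digested with collagenase, cells were caught on magnetic beads coated with a CD31 antibody, and RNA was taken from the beads with no culture step. From each sample 10 ng of RNA was primed with oligo-dT, amplified, marked with Cy3 and read on 1 array. No step in the labels removed platelets, and the sorted cells were not counted by type.

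Platelets inherit their RNA and most of their proteins from megakaryocytes, large cells of the marrow that also lodge in the lung. The receptor complex of Gp1ba, Gp1bb, Gp5 and Gp9 holds platelets to von Willebrand factor on an injured vessel wall, and the integrin of Itga2b and Itgb3 then binds fibrinogen and joins platelets to each other. Clec1b is the receptor for podoplanin, Treml1 lies in the granule membrane until activation, and the chemokines Pf4 and Ppbp are released from alpha granules. In bulk samples like these, more platelets and more RNA per platelet cannot be told apart.

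The genes share an expression programme in megakaryocytes, where GATA and ETS family factors act, so the stretch before each start was searched for letters that these families are known to prefer. For the GATA family these were AGATAA or AGATAG, with TGATAA or else TGATAG also taken. For the ETS family they were AGGAAG or CGGAAG, and both strands were read. No letters are shared between the matches of the 2 families in the windows shown. The window was the 250 bases before the start in RefSeq's promoter table for build GRCr8, in which 8 of the 10 genes had an entry (Pf4 and Itgb3 did not match). Shown are the windows of 3 genes that varied together across the arrays, Treml1, Gp9 and Ppbp, and that of Gp5. Over the arrays Gp5 spanned a smaller range (2.06-fold, against 3.99-fold to 12.2-fold for the 3). It varied with them too, at r = 0.803 to 0.852, against 0.842 to 0.95 among the 3. Each is written 5′ to 3′ on the gene's strand in lower case, with matches in capitals.
Treml1, chr9:20139934-20140183, minus strand: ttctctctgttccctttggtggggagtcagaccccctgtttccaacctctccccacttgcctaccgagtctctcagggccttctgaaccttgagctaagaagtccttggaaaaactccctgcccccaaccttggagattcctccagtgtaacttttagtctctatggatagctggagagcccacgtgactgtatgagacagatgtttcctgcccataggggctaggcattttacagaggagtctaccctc
Gp9, chr4:121792592-121792841, plus strand: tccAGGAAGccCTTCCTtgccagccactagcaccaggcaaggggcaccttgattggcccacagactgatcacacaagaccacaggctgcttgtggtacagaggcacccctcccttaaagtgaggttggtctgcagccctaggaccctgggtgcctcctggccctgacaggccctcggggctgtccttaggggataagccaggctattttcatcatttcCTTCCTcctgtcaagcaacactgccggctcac
Ppbp, chr14:17587300-17587549, minus strand: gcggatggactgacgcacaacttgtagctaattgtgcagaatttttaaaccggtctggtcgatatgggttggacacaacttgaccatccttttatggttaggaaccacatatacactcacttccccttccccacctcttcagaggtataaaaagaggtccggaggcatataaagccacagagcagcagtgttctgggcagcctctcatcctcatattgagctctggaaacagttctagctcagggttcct
Gp5, chr11:83948257-83948506, plus strand: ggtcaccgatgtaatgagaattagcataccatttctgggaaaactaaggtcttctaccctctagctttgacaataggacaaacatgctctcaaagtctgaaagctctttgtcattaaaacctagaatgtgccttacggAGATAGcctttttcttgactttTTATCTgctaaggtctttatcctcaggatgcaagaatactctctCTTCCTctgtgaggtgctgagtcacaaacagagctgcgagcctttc
In the Treml1 and Ppbp windows 0 of the letters searched were found. Gp9 had 3 ETS matches and 0 GATA matches, while Gp5 had 2 GATA matches and 1 ETS match. Clec1b and Gp1bb, whose windows are not shown, also varied with Treml1 (r = 0.966 and 0.915 over the 8 arrays). Clec1b had 1 GATA match and 2 ETS matches, and Gp1bb had 2 GATA matches and 1 ETS match. Among the windows shown only that of Gp5 held GATA letters. With Clec1b and Gp1bb taken in, genes that varied with Treml1 had windows with and without these letters. GATA letters stood in 5 of the 8 windows and in 27.0% of all 33469 promoters of that length, and ETS letters in 6 of the 8 and in 39.4%. A match is a description of the letters and not a bound site.

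Signals are given as scaled log2 values, the log2 of the background-subtracted intensity minus the array's 75th percentile over probes, so that 0 lies at that percentile. The share of spots above background ran from 70.8% (saline replicate 2) to 77.7%. Of 22 listed endothelial genes 20 were measured, as were 16 of 16 T and NK cell, 13 of 14 macrophage and monocyte, 11 of 11 smooth muscle and pericyte and 10 of 11 fibroblast and mesothelial genes, so being measured does not tell these cell types apart. Pecam1, the gene of CD31, stood at 5.39 ± 0.28 (SD, n = 4) in saline and 5.08 ± 0.27 in monocrotaline samples. The endothelial list had a mean 0.54 lower in the monocrotaline samples than in saline on the log2 scale (array means of -0.23 to 0.36 in saline and -0.82 to -0.09 after monocrotaline, each against the saline mean), with 0 of 20 genes called by limma (1.43% of all genes), 11 of 20 at an unadjusted p under 0.05 (13.9% of all genes) and 0 of 20 differences positive (46.1% of all genes). All 8 arrays lay on 1 slide, saline samples in 1 row and monocrotaline samples in the other, so slide row and treatment cannot be told apart.

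Signals of 8 of the 10 platelet genes were above background in CD31-selected cells of both groups, that of Ppbp on 3 of 4 arrays in each. Which cells gave them was not tested. For each of the 8 the SD among monocrotaline rats exceeded the difference between the group means. Among saline rats the SD was smaller than that difference for Pf4, Gp1bb and Gp9. None of the 8 measured genes was called higher or lower after monocrotaline (limma, Benjamini-Hochberg adjusted p under 0.05), where 1.43% of all genes tested were called in either direction, 1.37% higher and 0.0627% lower. At an unadjusted p under 0.05 the number was 0 of 8 as well, against 13.9% of all genes. The smallest two-sided exact permutation p among them was 0.2, for Pf4, where 4 against 4 arrays cannot go below 0.0286. In each of the 8 genes the groups overlapped, while 8.55% of all genes had groups that did not. The median difference was 0.20 on the log2 scale, against -0.03 over all genes tested, and 7 of the 8 differences were positive, against 46.1% of all genes. That median was -0.16 without monocrotaline replicate 1 and 0.65 without monocrotaline replicate 3.

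**Figure D1:**
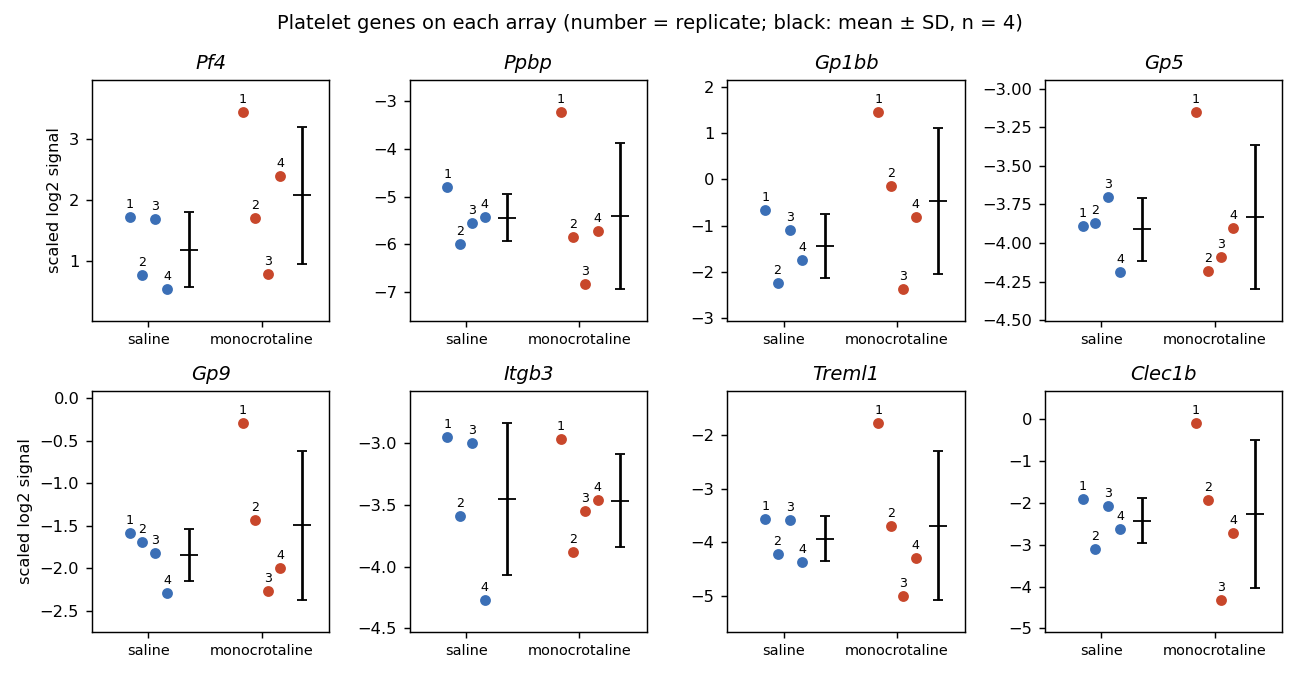
Scaled log2 signal (y axis, own range in each panel) of the 8 measured platelet genes in saline (blue) and monocrotaline (red) samples. Points are arrays with their replicate number, and black bars are mean ± SD, n = 4. Monocrotaline replicate 1 is the highest array in every panel but that of Itgb3, and the groups overlap in all 8.

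Of the granule chemokines, Pf4 (platelet factor 4, NM_001007729) read well above background on all 8 arrays. Its scaled log2 signals were 1.73, 0.78, 1.69 and 0.55 on saline replicates 1 to 4 and 3.44, 1.70, 0.79 and 2.39 on monocrotaline replicates 1 to 4. Monocrotaline replicates 1 and 4 lay above every saline array, and replicates 2 and 3 lay within the saline range. The group means were 1.19 ± 0.61 and 2.08 ± 1.12 (SD, n = 4), a difference of 0.90 ± 0.55 (SE) with a 95% interval of -0.36 to 2.15 (limma adjusted p = 0.50). The probe was printed on 10 spots, whose coefficient of variation within an array was 1.28% to 3.18%, while the arrays spanned 7.45-fold. The spots of an array share its cells, amplification and labelling, whose error they do not show.

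Ppbp (pro-platelet basic protein, NM_153721), the neighbouring gene of Pf4 in the RefSeq table and the precursor of neutrophil-attracting chemokines, was near background. Its signals were -4.80, -6.00, -5.56 and -5.44 on saline replicates 1 to 4 and -3.22, -5.85, -6.83 and -5.72 on monocrotaline replicates 1 to 4. Saline replicate 2 and monocrotaline replicate 3 were the lowest and were not well above background. Monocrotaline replicate 1 stood above every other array. Its 10 spots had a coefficient of variation of 7.59% there and of up to 35.1% on the dimmest array, so this gene's lower values carry more error than those of Pf4. The difference was 0.04 ± 0.69 (interval -1.54 to 1.63, limma adjusted p = 0.99).

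Among the von Willebrand factor receptor genes, Gp1bb (NM_053930), the beta chain of glycoprotein Ib, varied most. Its signals were -0.67, -2.25, -1.10 and -1.75 on the saline arrays and 1.46, -0.15, -2.37 and -0.81 on the monocrotaline arrays, in replicate order. Monocrotaline replicates 1 and 2 exceeded every saline array, and replicate 3 was the lowest of all 8. The difference was 0.97 ± 0.74 (interval -0.72 to 2.67, limma adjusted p = 0.60). A second Gp1bb probe gave 1.01, and over the 8 arrays the 2 probes correlated at r = 0.997. In the RefSeq table Gp1bb lies inside Septin5, a septin gene whose transcripts can run through it. The probe matched to Septin5, looked up after the Gp1bb values were seen, spanned -4.12 to -3.42 over the 8 arrays. The part of Septin5 transcripts in the Gp1bb signal was not tested.

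Gp9 (NM_001031825), the small subunit of that complex, had signals of -1.59, -1.69, -1.82 and -2.29 in saline and -0.29, -1.43, -2.27 and -2.0 in monocrotaline samples. Replicate 1 of the monocrotaline group was again the highest. The difference was 0.35 ± 0.41 (interval -0.58 to 1.28, limma adjusted p = 0.75). Gp5 (NM_012795), the subunit that thrombin can cleave, moved less: its signals were -3.89, -3.87, -3.70 and -4.19 in saline and -3.15, -4.18, -4.09 and -3.90 in monocrotaline samples. Apart from monocrotaline replicate 1 its 7 arrays lay within the narrow saline range. Its difference was 0.08 ± 0.24 (interval -0.46 to 0.62, limma adjusted p = 0.91). Gp1ba (NM_001109654), the chain that binds von Willebrand factor itself, was not well above background on any of the 8 arrays, and no fold is given for it.

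Itgb3 (NM_153720), the beta 3 integrin chain, is also made by endothelial cells and macrophages, where it pairs with the alpha V chain. Its signals were -2.95, -3.59, -3.0 and -4.27 in saline and -2.97, -3.88, -3.55 and -3.46 in monocrotaline samples. The saline arrays held both the highest and the lowest value. It was the only one of the 8 genes whose highest array was not monocrotaline replicate 1. The difference was -0.01 ± 0.32 (interval -0.75 to 0.72, limma adjusted p = 0.99).

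Of the 2 surface receptors restricted largely to this lineage, Treml1 (NM_001192001), a receptor of activated platelets, had signals of -3.57, -4.22, -3.58 and -4.38 in saline and -1.77, -3.69, -5.01 and -4.29 in monocrotaline samples. Clec1b (NM_001191978), the podoplanin receptor, had signals of -1.91, -3.09, -2.07 and -2.62 in saline and -0.08, -1.93, -4.32 and -2.72 in monocrotaline samples. For both genes monocrotaline replicate 1 was the highest and replicate 3 the lowest of all 8 arrays. Clec1b spanned 18.9-fold within the monocrotaline group and 2.27-fold within the saline group. Differences were 0.25 ± 0.62 for Treml1 (interval -1.18 to 1.67, limma adjusted p = 0.89) and 0.16 ± 0.79 for Clec1b (interval -1.64 to 1.96, limma adjusted p = 0.95).

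**Figure D2:**
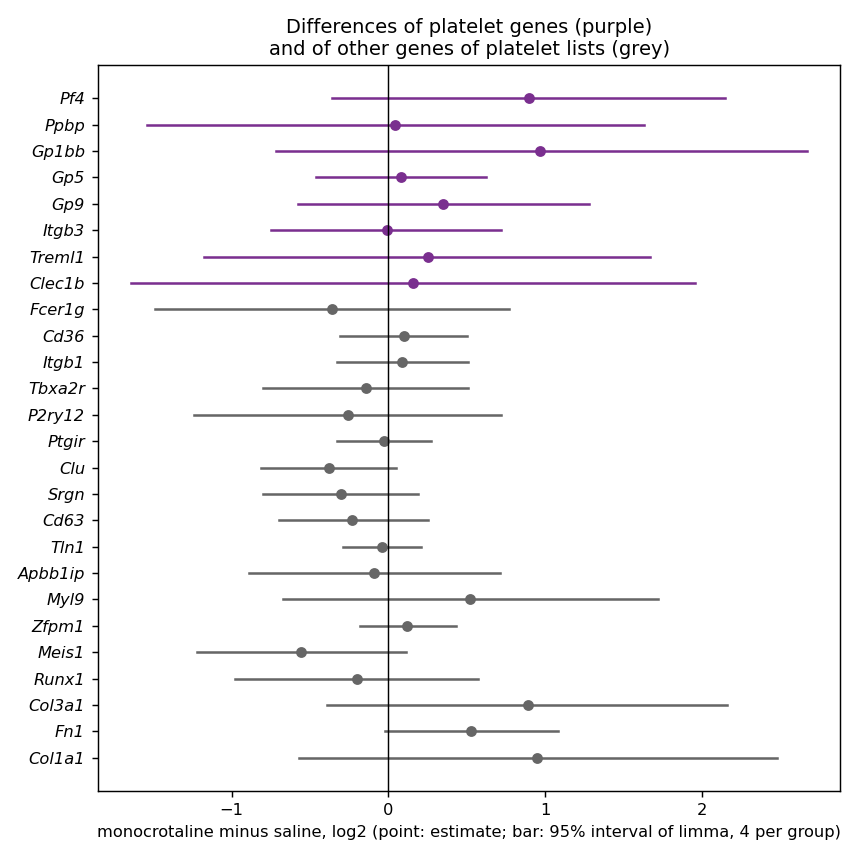
Monocrotaline minus saline difference on the log2 scale (x axis) for the 8 platelet genes (purple) and for the 18 genes named from the other platelet-related lists (grey). Points are estimates and bars 95% intervals from limma, 4 arrays per group. Every interval shown includes 0; the widest among the platelet genes is that of Clec1b, from -1.64 to 1.96.

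The intervals leave room for sizeable differences in either direction. On the linear scale they ran from 0.779-fold to 4.45-fold for Pf4, 0.605-fold to 6.36-fold for Gp1bb and 0.32-fold to 3.88-fold for Clec1b. For Gp5 the interval was narrower, 0.726-fold to 1.54-fold.

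The 8 genes tended to vary together from rat to rat, Itgb3 least, and much of this rested on monocrotaline replicate 1. Monocrotaline replicate 1 was the highest array for 7 of them, as for 11.3% of all genes tested, and monocrotaline replicate 3 was the lowest monocrotaline array for 6 (Gp5 and Itgb3 were lowest on replicate 2). With the saline mean set to 0, the 8 genes averaged 1.84, 0.23, -0.80 and 0.09 on monocrotaline replicates 1 to 4, and 0.45, -0.33, 0.27 and -0.39 on saline replicates 1 to 4. Among the saline arrays, replicates 1 and 3 both exceeded replicates 2 and 4 for 5 of the 8 genes (Pf4, Gp1bb, Itgb3, Treml1 and Clec1b). The share of all genes with this order was not counted, and the order is not particular to platelet genes. Mean signals of the erythroid, neutrophil, T and NK cell, alveolar type 2, airway, fibroblast and smooth muscle lists had it too. Those of the endothelial, macrophage, B cell and mast cell lists did not. The monocrotaline SD was the larger one for 7 of 8 genes, Itgb3 being the exception, and for 59.2% of all genes.

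**Figure D3:**
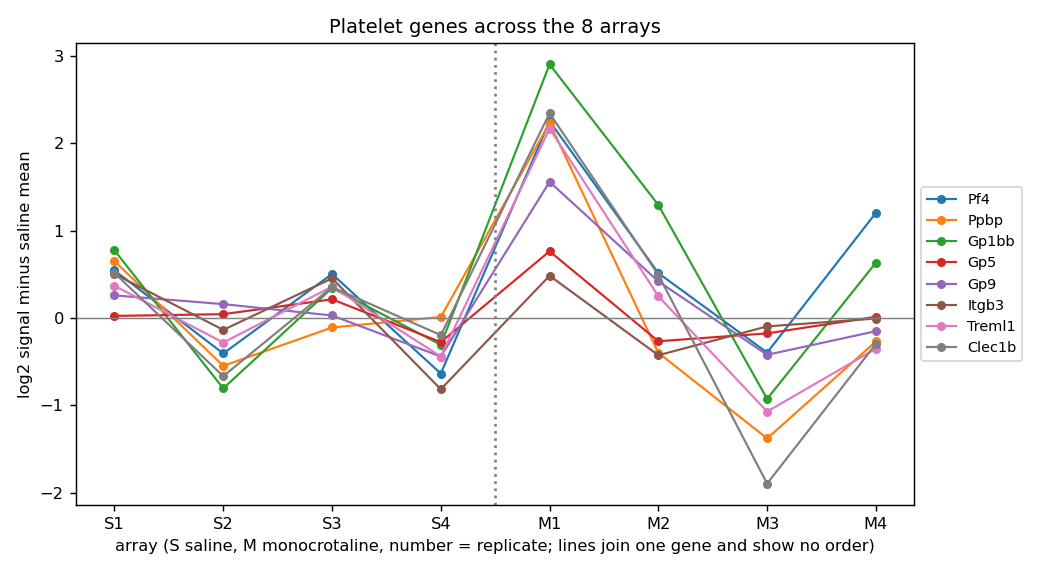
Log2 signal of each platelet gene minus its own saline mean (y axis) on the 8 arrays (x axis: S saline, M monocrotaline, with the replicate number). Lines join the values of 1 gene. On M1 every gene but Itgb3 is at its highest, and on M3 Clec1b, Ppbp, Treml1 and Gp1bb are at their lowest of all 8 arrays. The mean of the 8 genes is 1.84 on M1 and -0.80 on M3.

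Within-group spread was high for these genes. The residual SD was 1.30 for Clec1b, 1.23 for Gp1bb, 1.14 for Ppbp, 1.03 for Treml1 and 0.903 for Pf4, against a median of 0.283 over all genes tested. These 5 genes lay at the 98.2, 97.8, 97.2, 95.9 and 94.2 percentiles of all genes, Gp9 at the 87.8, Itgb3 at the 79.8 and Gp5 at the 64.03 percentile.

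Over the 8 arrays, the 28 pairs of platelet genes had a median Pearson r of 0.813, from 0.442 (Itgb3 with Clec1b) to 0.966 (Treml1 with Clec1b). Each r is a description of 8 arrays that share 1 slide. Without monocrotaline replicate 1 the median was 0.485, over 0.036 to 0.946, so much of the common variation rested on that rat. Treml1 with Clec1b (0.946), Ppbp with Clec1b (0.842) and Gp1bb with Clec1b (0.826) remained high without it, and Gp1bb with Gp5 fell from 0.687 to 0.036.

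Genes of similar profile were ranked by r with the mean of the 7 platelet genes above background on all 8 arrays, each of those 7 being set against the mean of the other 6. Treml1 (r = 0.967), Gp1bb (0.934), Gp9 (0.917), Clec1b (0.916), Ppbp (0.91), Pf4 (0.89) and Gp5 (0.828) ranked 5, 6, 10, 12, 14, 22 and 70 of 19137, and Itgb3 (0.557) ranked 1428. Without monocrotaline replicate 1 the ranks were 20 for Treml1 (r = 0.89), 96 for Gp1bb (0.819), 412 for Gp9 (0.709), 157 for Clec1b (0.793), 482 for Ppbp (0.692), 395 for Pf4 (0.713), 2712 for Gp5 (0.395) and 2406 for Itgb3 (0.425). The median r of all other genes was -0.06. Among the genes with a symbol that ranked highest were Ucp1 (0.979), the uncoupling protein of brown fat, Npy (0.978), neuropeptide Y, Alox12 (0.973), the 12-lipoxygenase of platelets, Arhgef39 (0.920) and Ostn (0.910). Without monocrotaline replicate 1 r was 0.929 for Ucp1, 0.958 for Npy, 0.919 for Alox12, 0.724 for Arhgef39 and 0.783 for Ostn, and Npy ranked first of all genes. Ucp1, Alox12, Arhgef39 and Ostn were about as dim as Ppbp, with saline means of -5.11, -5.07, -5.71 and -5.83 against -5.45. Arhgef39 was well above background on 6 of 8 arrays and Ostn on 7.

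Npy, measured by 2 probes, had signals of 2.56, 0.75, 1.80 and 0.89 in saline and 4.76, 2.29, -0.63 and 1.70 in monocrotaline samples on the brighter probe. Monocrotaline replicate 1 was the highest array and replicate 3 the lowest, as for Clec1b. Its difference was 0.53 ± 1.01 (limma adjusted p = 0.85). Alox12 had signals of -4.51, -5.76, -4.79 and -5.22 in saline and -2.92, -4.56, -6.16 and -5.08 in monocrotaline samples, with a difference of 0.39 ± 0.62 (limma adjusted p = 0.83). Ucp1 was well above background on 7 of 8 arrays and ran from -6.34 on monocrotaline replicate 3 to -1.25 on monocrotaline replicate 1.

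**Figure D4:**
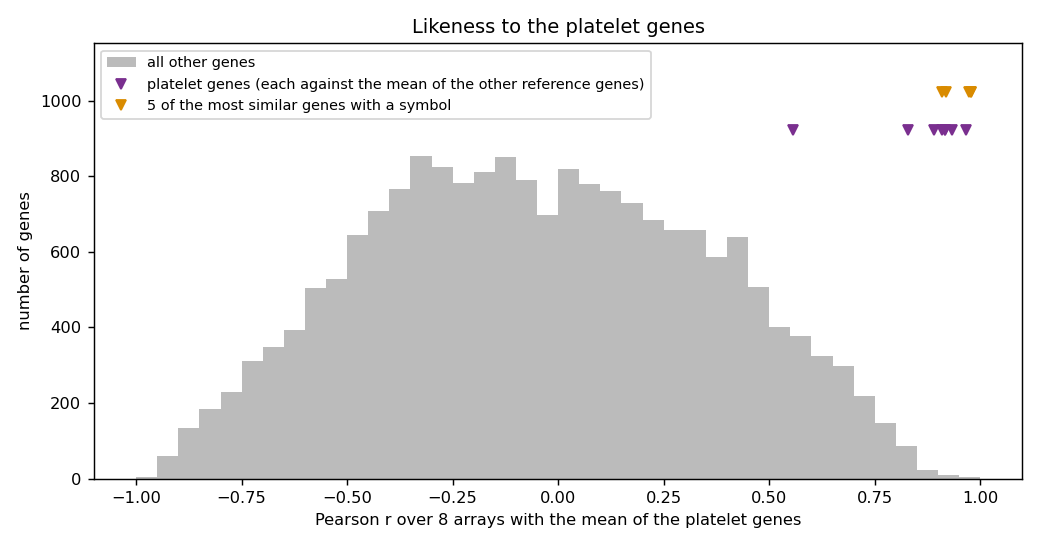
Number of genes (y axis) by Pearson r over the 8 arrays with the mean of the platelet genes (x axis), for all other genes tested (grey). Purple marks are the 8 platelet genes, between 0.557 and 0.967, and orange marks 5 of the most similar genes with a symbol, between 0.910 and 0.979. The median of the grey genes is -0.06.

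Other genes of platelets and their partners were taken from 6 lists with 75 genes, of which 63 had a probe and 57 were measured. By limma 0 of these 57 were called, against 1.43% of all genes. At an unadjusted limma p under 0.05 the number was 8 (14.04%, against 13.9% of all genes). The groups did not overlap in 4 (7.02%, against 8.55%): Cd226, Adra2a and F13a1 were higher and Mafg lower after monocrotaline, all 4 named after their values were seen. Of the adhesion and collagen receptors 5 were measured, with a median difference of 0.09. Their brightest members were Fcer1g, the signalling chain of the collagen receptor and of Fc receptors on leukocytes (-0.36 ± 0.49), Cd36, a scavenger receptor of platelets and endothelium (0.10 ± 0.18), and Itgb1, the beta 1 integrin chain (0.09 ± 0.18). Cd226, an adhesion receptor that T and NK cells carry too, differed by 1.63 ± 0.40 (limma adjusted p = 0.12). On the same arrays the list of T and NK cell markers was higher by a mean of 1.41, with 3 of 16 called (against 1.43% of all genes). Its part in the Cd226 value was not tested.

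Of the agonist receptors 9 were measured, with a median of -0.03. Tbxa2r, the thromboxane receptor, differed by -0.14 ± 0.29, P2ry12, the ADP receptor, by -0.26 ± 0.43 and Ptgir, the prostacyclin receptor, by -0.03 ± 0.13. In their profile over the arrays, 5 of the 9 (P2rx1, F2r, F2rl3, Ptgir and F2rl2) were among the top 5% of all genes by r with the platelet mean, and the list's median r was 0.69. Without monocrotaline replicate 1 there were 3 of 9 (P2rx1, F2r and F2rl3), with a median r of 0.45. P2rx1, an ATP-gated channel, had r = 0.804 and F2r, the thrombin receptor PAR1, 0.792. F2r is made by endothelial and smooth muscle cells, whose lists had median r of 0.00 and 0.49. Without monocrotaline replicate 1 these were 0.14 and 0.62, so the smooth muscle list then stood above the agonist receptors. Alveolar type 2 markers went from 0.19 to 0.48. Following the platelet mean is thus not particular to the agonist receptors, and which cells gave the F2r signal was not tested.

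Of the granule contents 11 were measured, with a median of -0.09. The brightest were Clu, clusterin (-0.38 ± 0.19), Srgn, serglycin (-0.30 ± 0.22), and Cd63, a granule membrane protein (-0.23 ± 0.21). F13a1, the A chain of factor XIII, which macrophages make too, differed by 1.48 ± 0.41 (limma adjusted p = 0.16). Of the signalling and cytoskeleton genes 17 were measured, with a median of 0.20 and a median r of 0.02. Tln1, talin, which activates integrins, differed by -0.04 ± 0.11, Apbb1ip, which brings talin to them, by -0.09 ± 0.35 and Myl9, a myosin light chain shared with smooth muscle, by 0.52 ± 0.52.

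Of 9 megakaryocyte transcription factors 7 were measured, with a median of -0.20 and a median r of 0.01. Gfi1b, a repressor of the megakaryocyte and erythroid lineages, was well above background on 0 of 8 arrays and Gata1, which drives both lineages, on 3 of 8. Gata1 was brightest on monocrotaline replicate 3 (-4.62), the array with the most erythroid signal and the least Clec1b. The brightest of the 7 were Zfpm1, a GATA1 partner (0.12 ± 0.13), Meis1 (-0.56 ± 0.29) and Runx1 (-0.20 ± 0.34).

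Of the ligands and receptors through which platelets meet other cells (among them Cxcr2 and Cxcr3, receptors for platelet chemokines) 8 were measured, with a median of 1.00 that fell to 0.47 without saline replicate 2. The brightest were Col3a1 (0.89 ± 0.56) and Col1a1 (0.95 ± 0.66), collagens of fibroblasts, and Fn1, fibronectin (0.53 ± 0.24, limma adjusted p = 0.38). The list of 10 fibroblast and mesothelial markers measured had 0 called (against 1.43% of all genes) and a median of 1.11 on the same arrays. Its part in these values was not tested. Pdpn, the ligand of Clec1b and a protein of type 1 alveolar and lymphatic cells, differed by -0.51 ± 0.23 (limma adjusted p = 0.37).

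Markers of other blood cells had median r between -0.44 and 0.20 with the platelet mean, the lowest being that of 8 B and plasma cell genes. The erythroid list, 8 measured of 13, had array means against saline of 0.75, 0.63, 2.78 and -0.16 on monocrotaline replicates 1 to 4, so the array highest in red cell genes was the lowest in platelet genes. The erythroid genes had a median r of -0.10 with the platelet mean. Neutrophil markers, 7 of 12 measured, stood at 0.78, -0.15, 1.84 and 0.24 on the same arrays (median r -0.04). Macrophage and monocyte markers, 13 of 14 measured, stood at 0.38, -0.97, 0.57 and 0.94 (median r 0.02). The 16 T and NK cell markers had a median r of 0.20 and the 20 endothelial genes one of 0.00.

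**Figure D5:**
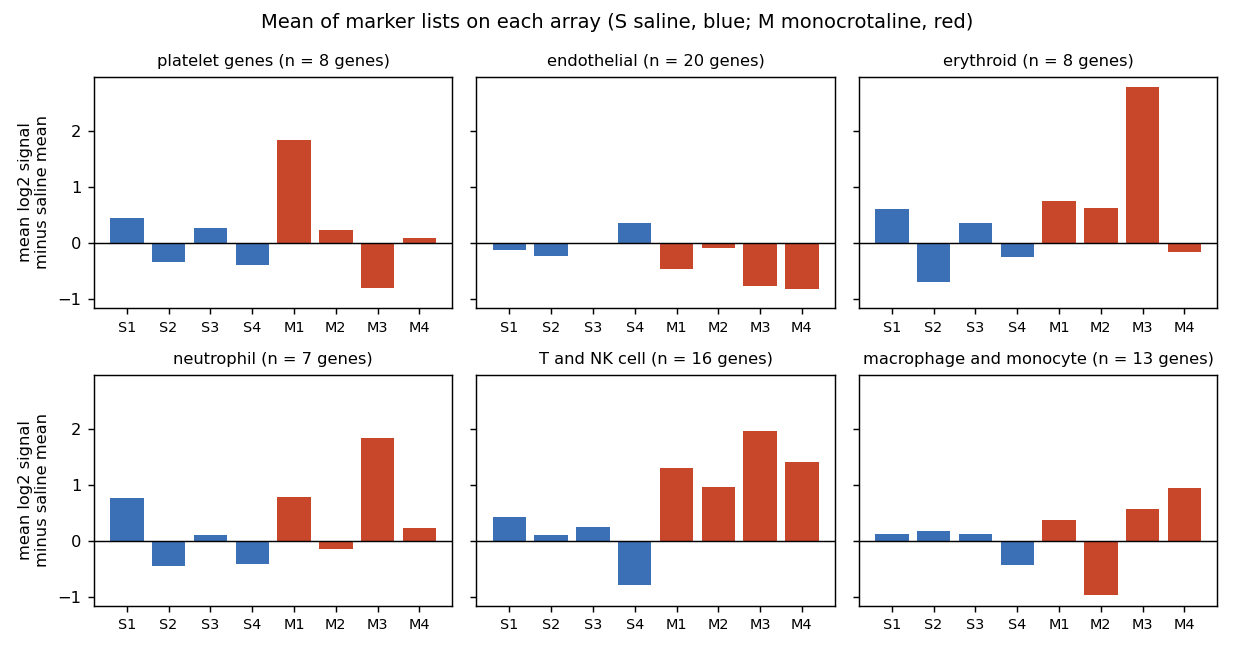
Mean log2 signal of 6 marker lists on each array minus the saline mean (y axis), with saline arrays in blue and monocrotaline arrays in red. Platelet genes peak on M1 at 1.84 and are lowest on M3 at -0.80. Erythroid markers peak on M3 at 2.78, and T and NK cell markers are higher on all 4 monocrotaline arrays, from 0.96 to 1.97.

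Airway secretory and ciliated markers, 9 of 12 measured with 1 called (against 1.43% of all genes), were high on both monocrotaline replicate 1 (3.03) and replicate 3 (3.18), the arrays at opposite ends for the platelet genes. Their part in the platelet values was not tested. Without these 2 arrays, left out after the data had been seen, 0 of the 8 platelet genes and 0 of the 57 others were called and the median of the 8 was 0.02.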

How the data were processed

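Total RNA of CD31-selected lung cells from 8 rats, 4 per group, was read on 1-colour Agilent arrays, and the group of each sample comes from its title. Per the file headers, Agilent Feature Extraction 10.7.3.1 made the signals: the deposited intensity has had background and spatial trend removed array by array, with no scaling across arrays. Flags for each spot, other values of 0 or 1, were deposited too. Values in the deposited series table are log2 of a log2 signal: 2 to the power of each value differed from the quantile-normalized log2 intensity by a median of 9.89e-10, so it served only as an alternative. The submitters' processing notes name limma 3.6.9, with no role given.

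Intensities were averaged over a probe's spots after leaving out 4259 control spots and outlier-flagged spots, taken to log2 and set to 0 at each array's 75th percentile. Probes well above background on at least 4 arrays (21652 of 30350) gave 19137 genes, each by its brightest probe, named by accession through RefSeq's gene list for build GRCr8. Monocrotaline was compared with saline with limma 3.58.1 in R 4.3.3 (files read with data.table, version 1.17.8), with Benjamini-Hochberg adjustment over all genes and a threshold of 0.05. On simulated data of 19137 genes, 51% of changes of 1 log2 unit and 83% of changes of 2 were called. These rates are not for genes with the spread of Pf4, Treml1, Ppbp, Gp1bb and Clec1b. Their residual SD was 0.903 to 1.30, against a median of 0.283, and no rate was worked out for them. Depth does not apply to arrays: the 4 arrays per group limit the precision.

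All 10 genes are named, with the 3 brightest measured members of each of 6 other lists (called members first, but none was called), Pecam1, Cdh5 and the 6 genes most similar in profile, 1 of which is not reported here. Any other gene with values, such as Septin5, Gata1, P2rx1, F2r or Pdpn, was added after its values were seen. The genes and lists were chosen with earlier results of these data known. Labels give 4 animals per group, and whether rats shared a cage or litter is not given in the sources used here. Alternatives were other background corrections, scalings, filters, probe rules, variance models, array weights, a replicate block, the exact permutation test and leaving out arrays.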

Additional observations from a re-analysis of the deposited data

Results flagged for a closer look

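In 82 sets of 4 arrays, 1 value per group for each named gene and list mean, 2 had an array that stood apart from the other 3 by Dixon's criterion, where chance alone marks about 1 in 20. Monocrotaline replicate 2 had Fcer1g at 1.89, while the other 3 rats of its group had it at 3.82 to 3.98. The macrophage and monocyte markers were lowest on that array too, at -0.97 against the saline mean. Arhgef39 was at -3.90 on monocrotaline replicate 1, against -5.85 to -5.64 on the others. None of the 8 platelet genes was marked by this criterion in either group.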

How the results depend on the processing

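The count of 0 platelet genes called held under all 22 alternatives run, with limma adjusted p from 0.163 (Pf4) to 0.9996 (Ppbp). The count of 0 called among the 57 other genes became 3 with arrays centred on endothelial genes (among them Vtn and Cd226), a setting that shifts the median of all genes to 0.51, and lay between 0 and 1 with 1 array left out (Cxcr3, without monocrotaline replicate 2). The 262 genes called higher became 447 when centred on endothelial genes, 0 with a replicate block and 51 without monocrotaline replicates 1 and 3 together, and ranged from 11 to 273 with 1 array left out. The 12 called lower became 0, 0 and 1 in those 3 settings, 8 with no filter, 21 with normexp and either scaling and 59 with array weights, and ranged from 0 to 93 with 1 array left out.

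Direction turned for several genes, none of them called. With normexp and 75th percentile scaling Ppbp was at -0.07 and Gp5 at -0.06. Ppbp was at -0.04 in the deposited table and at -0.17 with array weights, where Cd36 was at -0.01. Without monocrotaline replicates 1 and 3 together the values were -0.34 for Ppbp, -0.13 for Gp5, -0.05 for Treml1 and -0.08 for Cd36. Tln1 was at 0.01 with quantile normalization and with normexp and quantile normalization, and at 0.07 in the deposited table. Itgb1 was at -0.07 as the mean of its probes. Centring on endothelial genes adds the same amount to every gene of a given array, which moved the median of all genes from -0.03 to 0.51 and took these genes above 0 with it: the values were 0.52 for Itgb3, 0.17 for Fcer1g, 0.39 for Tbxa2r, 0.27 for P2ry12, 0.50 for Ptgir, 0.16 for Clu, 0.23 for Srgn, 0.31 for Cd63, 0.49 for Tln1, 0.44 for Apbb1ip, 0.33 for Runx1, 0.23 for Pecam1 and 0.06 for Cdh5. For the other settings the cause was not tested.

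With 1 array left out the differences ran from 0.44 to 1.33 for Pf4, -0.69 to 0.52 for Ppbp, 0.33 to 1.61 for Gp1bb, -0.15 to 0.20 for Gp5, -0.05 to 0.61 for Gp9, -0.29 to 0.15 for Itgb3, -0.39 to 0.69 for Treml1 and -0.57 to 0.84 for Clec1b. For Ppbp, Gp5, Gp9, Treml1 and Clec1b the lowest of these was the value without monocrotaline replicate 1. They ran from -0.63 to 0.14 for Fcer1g, -0.01 to 0.24 for Cd36, -0.03 to 0.21 for Itgb1, -0.30 to 0.03 for Tbxa2r, -0.51 to 0.11 for P2ry12, -0.12 to 0.02 for Ptgir, -0.08 to 0.00 for Tln1 and -0.35 to 0.18 for Apbb1ip. No pairing by replicate number is given in the labels. Deviations of same-numbered arrays correlated at -0.015, -0.232, -0.326 and -0.197, and those of other pairs at a mean of 0.064. Such correlations cannot show whether a pairing existed. The replicate block gave 0 calls among the platelet genes. Over the settings run for each, r with the platelet mean was 0.848 to 0.992 for Alox12 and 0.928 to 0.987 for Npy. It was 0.881 to 0.993 for Ucp1, 0.679 to 0.961 for Arhgef39 and 0.625 to 0.955 for Ostn. Signal over background limits Ppbp and leaves Gp1ba with no value.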
